A study of Mus musculus with 4 samples.

Results

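The genes described here encode the enzymes that build long-chain fatty acids, lengthen them and put double bonds into them, together with Srebf1, which encodes the transcription factor SREBP-1. They were taken from a list of 10 symbols (Srebf1, Acly, Acaca, Fasn, Elovl5, Elovl6, Scd1, Scd2, Fads1 and Fads2), each matched to 1 Ensembl identifier among the 53379 in the files. Expression was measured by bulk RNA-seq of polyadenylated RNA in MC38 tumor cells sorted from subcutaneous tumors of C57BL/6 mice, with 2 libraries from responder tumors and 2 from non-responder tumors. MC38 cells derive from a colon adenocarcinoma of a mouse; they carried GFP, and 50000 were inoculated per animal. Both groups had the same treatment, an anti-PD-1 antibody that blocks the T cell checkpoint receptor PD-1, at 100 µg per dose, which the labels call sub-optimal, with doses on day 12, day 15, day 18 and day 22, so no library comes from an untreated tumor. How response was scored, and whether the libraries of a group come from separate mice, is not given in the sources used here, so the spread behind each p-value is that between libraries and could be technical.

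De novo fatty acid synthesis starts in the cytosol, where ATP citrate lyase splits citrate into acetyl-CoA, acetyl-CoA carboxylase turns part of it into malonyl-CoA, and fatty acid synthase condenses both into palmitate. Elongases of the ELOVL family add carbon units in the endoplasmic reticulum, stearoyl-CoA desaturases make monounsaturated fatty acids, and the FADS desaturases act on polyunsaturated ones. SREBP-1 is released from a membrane-bound precursor by proteolysis and activates the genes of most of these steps. Proliferating tumor cells often depend on the pathway for membrane lipids.

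All 10 genes passed the low-count filter, with between 1048 and 64040 reads per gene and library, and none passed edgeR's quasi-likelihood test of responder against non-responder tumor cells. After Benjamini-Hochberg adjustment, 0 of the 10 genes passed an adjusted p of 0.05, beside 0% of the 13792 genes tested. At an unadjusted p under 0.05 the count was also 0 of 10, beside 6.21% of all genes (856 genes; 2.57% higher and 3.63% lower in responders). Without any 1 library the count of all genes past the adjusted threshold was 41 to 516, again with 0 of the 10 among them. DESeq2 called 0 of the 10 at its adjusted p, beside 0.45% of all genes, and 1 of the 10, Fasn, at an unadjusted p of 0.048, beside 5.34% of all genes under 0.05. With limma-voom 0 of the 10 passed at either, beside 0% of all genes at the adjusted and 6.34% at the unadjusted p. The log2 fold changes, responder over non-responder, ran from -0.33 for Fads2 to 0.43 for Fasn, with 3 genes above 0 and 7 below. Their median was -0.12, against -0.01 over all genes tested, and it was -0.06 without responder replicate 2. The 2 groups did not overlap for 6 of the 10 genes, beside 36.5% of all genes tested. Fasn and Acaca were the 2 that lay higher in responders, beside 18.8% of all genes, and Acly, Elovl5, Fads1 and Fads2 the 4 that lay lower, beside 17.7%; scaled by library size alone, Fads1 overlapped and the count was 5. In bulk RNA a difference in the number of cells of a type cannot be told apart from a difference in RNA per cell.

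The 2 responder libraries were close to each other for most of these genes, with the widest gap at Scd1 (log2 difference -0.21, replicate 2 over 1). The median size of the log2 difference between responder replicates was 0.04 over the 10 genes, against 0.21 over all genes tested. In the other lipid lists described below it ran from 0.08 (sterol genes) to 0.47 (fatty acid uptake genes). Between the non-responder replicates the median of the 10 genes was 0.19, against 0.32 over all genes tested. The widest gaps between non-responder replicates were those of Srebf1, Fads2, Fasn and Scd2.

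**Figure D1:**
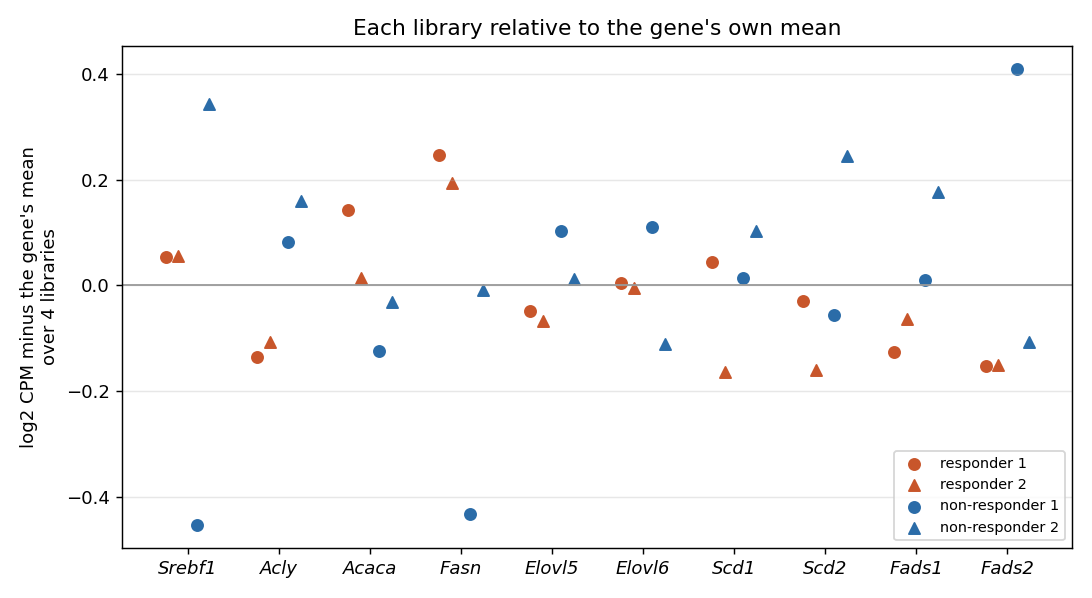
Each point is 1 library's TMM-normalised log2 CPM minus the gene's mean over the 4 libraries (y axis), for the 10 genes in order of role (x axis); responder libraries are orange and stand left of the blue non-responder libraries, with circles for replicate 1 and triangles for replicate 2. Non-responder replicate 1 is the lowest library for Srebf1 (-0.45), Fasn (-0.43) and Acaca (-0.12). It is the highest for Fads2 (0.41), Elovl6 (0.11) and Elovl5 (0.10). The responder points of Srebf1, Elovl6 and Fads2 coincide.

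Total counts were 18447041 to 21754063 per library. Markers of fat cells, which express these enzymes strongly, were near 0: all 8 were under 1 CPM in every library, Retn was at 0, and their sum was 0.20 and 0.52 CPM in responder, against 0.19 and 0.09 CPM in non-responder libraries. The 5 macrophage markers (C1qa, C1qb, Lyz2, Csf1r and Cd68) summed to 12.2 and 58.1 CPM in responder and 61.3 and 158 CPM in non-responder libraries. Of these, Cd68 alone was nearly level, at 9.47 and 9.21 CPM in responder and 9.13 and 10.0 CPM in non-responder libraries. The 5 leukocyte markers summed to 1.49 and 23.0 CPM in responder and 21.3 and 69.0 CPM in non-responder libraries. The 6 fibroblast markers, 5 of which were lower in responders at an unadjusted p under 0.05, beside 3.63% of all genes, and none at edgeR's adjusted p (smallest adjusted p = 0.334), summed to 1373 and 1440.2 CPM in responder and 1860.4 and 2355 CPM in non-responder libraries. Whether the reads of these markers came from other cells or from the sorted tumor cells was not tested. Nor was any part of other cells in the values of the lipid genes. Although MC38 derives from colon epithelium, 6 of 7 epithelial and colon markers were under 1 CPM in every library, and the sum of the 7 was 2.48 and 1.94 CPM in responder and 0.72 and 3.23 CPM in non-responder libraries. Of 5 endothelial markers, the sum was 12.4 and 15.3 CPM in responder and 24.2 and 27.9 CPM in non-responder libraries; skin and sebaceous markers summed to at most 5.01 CPM in a library and skeletal muscle markers to at most 1.66 CPM.

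Srebf1 (ENSMUSG00000020538, mm10 chromosome 11, 60199089 to 60222581, minus strand) encodes the factor that drives the pathway. It had 105 and 105 CPM (TMM-normalised read counts scaled to library size) in the responder libraries, against 74.0 and 129 CPM in the non-responder libraries. Both responder values lay between the 2 non-responder values, which differed by 0.80 on the log2 scale. The log2 fold change was 0.05 (SE 0.26, 95% interval -0.56 to 0.67; edgeR adjusted p = 0.982). It was -0.28 when non-responder replicate 1 was left out, and 0.51 when non-responder replicate 2 was, so its direction rests on which non-responder library is used. The gene overlaps exons of Rai1 on the opposite strand, and the counts were made by strand. RefSeq (GRCm38.p6) lists 3 starts for Srebf1, and the counts, made per gene, do not separate transcripts from them.

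Acly (ENSMUSG00000020917, chromosome 11, 100476353 to 100528000) encodes ATP citrate lyase, the source of cytosolic acetyl-CoA. It had 384 and 392 CPM in the responder libraries, against 447 and 472 CPM in the non-responder libraries. Both responder libraries were below both non-responder libraries, with means of 388 ± 5.31 and 459 ± 17.6 CPM (SD, n = 2 libraries each). The log2 fold change was -0.24 (SE 0.19, 95% interval -0.68 to 0.20; edgeR adjusted p = 0.869), and it stayed between -0.28 and -0.20 in 13 alternative fits.

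Acaca (ENSMUSG00000020532, chromosome 11, 84129672 to 84401651) encodes acetyl-CoA carboxylase 1, the committed step. It had 60.9 and 55.7 CPM in the responder libraries, against 50.6 and 53.9 CPM in the non-responder libraries. The groups did not overlap but nearly met, and the log2 fold change of 0.16 (SE 0.16, 95% interval -0.22 to 0.53; edgeR adjusted p = 0.903) was no larger than its error. Acaca is the gene most exposed to shared sequence: 30.4% of the 50-base words of its transcripts also occur in transcripts of other genes, most of them in the pseudogene Gm5182 on chromosome 12. Reads that fit both places were not counted, so the level of Acaca can be too low; Gm5182 itself had 28 and 23 reads in responder and 21 and 23 reads in non-responder libraries.

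Fasn (ENSMUSG00000025153, chromosome 11, 120805846 to 120824547) encodes fatty acid synthase, the multifunctional enzyme that makes palmitate, and had the log2 fold change farthest from 0 of the 10 genes with all 4 libraries, though not with non-responder replicate 1 left out, when Scd2 had it (-0.33). It had 659.6 and 636 CPM in the responder libraries, against 412 and 553 CPM in the non-responder libraries. Both responder libraries were above both non-responder libraries, and non-responder replicate 1 stood lowest. The means were 648 ± 16.6 and 482 ± 99.7 CPM (SD, n = 2 libraries each). The fold change was 1.34 (log2 0.43, SE 0.22, 95% interval -0.09 to 0.94; edgeR adjusted p = 0.815), so the data allow anything from a fold of 0.942 to one of 1.91. With non-responder replicate 1 left out, the log2 fold change was 0.23 (edgeR adjusted p = 0.80), and with the other non-responder library left out it was 0.65 (edgeR adjusted p = 0.132). The longest Fasn transcript has a GC content of 57.9%, against a median of 49.1% over all genes tested. Taking out the dependence on GC content and length within each library left the log2 fold change at 0.48 (edgeR adjusted p = 0.628). The 250 bases before the Fasn start are shown because Fasn had the log2 fold change farthest from 0 with all 4 libraries; its promoter is a textbook SREBP target. They lie on the minus strand of GRCm38.p6 at chr11:120824548-120824797 (RefSeq), just outside the gene. Capitals mark ATCACCC, the core of a sterol regulatory element, and CCAAT, the box bound by NF-Y, or its reverse, ATTGG.
Fasn: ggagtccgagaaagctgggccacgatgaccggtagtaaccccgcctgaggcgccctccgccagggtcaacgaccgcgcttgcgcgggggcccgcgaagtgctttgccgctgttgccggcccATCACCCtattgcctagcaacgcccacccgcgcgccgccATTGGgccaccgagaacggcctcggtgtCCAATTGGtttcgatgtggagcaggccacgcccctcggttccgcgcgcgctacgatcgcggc

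In that window ATCACCC starts 129 bases before the transcription start, and CCAAT or its reverse occurs 3 times, the last 2 overlapping on opposite strands. Promoter windows were found for 7 of the 10 genes, 9 windows in all. The only Acaca window (chr11:84195188-84195437) lies inside the gene, as do the Srebf1 windows chr11:60210472-60210721 and chr11:60220628-60220877. The counts below include these internal starts. Searched on both strands, ATCACCC occurred in 1 of the 9, against 2.28% of 32851 mouse windows of the same length, and CCAAT in 4 of the 9 (Fasn, Elovl5 and 2 of the Srebf1 windows), against 33.8%. CACGTG, an E-box, occurred in 1 of the 9, against 6.02%, and GGGCGG, an SP1 box, in 4 of the 9, against 32.7%. These are matches of letters in a short window and say nothing of binding.

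The ratios of Fasn to Acly, Acaca, Scd1 and Srebf1 were higher in both responder libraries than in either non-responder library. Fasn was picked for its fold change and its own groups did not overlap, so this separation largely follows from that choice. It is no separate support for a difference in Fasn, and how often ratios of other gene pairs separate was not counted. Per kilobase of exon, Fasn had 0.828 and 0.783 times the level of Acly in the responder libraries, against 0.445 and 0.566 times in the non-responder libraries. Its ratio to Acaca was 16.9 and 17.8 in responder libraries, against 12.7 and 16.0 in non-responder libraries, and its ratio to Scd1 was 0.651 and 0.725 in responder libraries, against 0.415 and 0.524 in non-responder libraries. Its ratio to Srebf1 was 3.23 and 3.11 in responder libraries, against 2.86 and 2.21 in non-responder libraries. With 2 libraries per group an exact two-sided permutation test cannot go below p = 0.333, so the ratios are a description.

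The elongases differed by less than their errors. Elovl6 (ENSMUSG00000041220, chromosome 3, 129532355 to 129638495), which lengthens palmitate to stearate, had 78.8 and 78.2 CPM in the responder libraries, against 84.7 and 72.7 CPM in the non-responder libraries. The responder values lay between the non-responder values, and the 95% interval of the log2 fold change ran from -0.39 to 0.38 (edgeR adjusted p = 0.998). The estimate of -0.004 was 0.03 when libraries were scaled by size alone. Elovl5 (ENSMUSG00000032349, chromosome 9, 77917364 to 77984519), which lengthens polyunsaturated fatty acids, had 120.3 and 119 CPM in the responder libraries, against 134 and 126 CPM in the non-responder libraries. Its groups did not overlap, with a log2 fold change of -0.12 (SE 0.17, 95% interval -0.50 to 0.27; edgeR adjusted p = 0.933). Per kilobase, Elovl5 stood at 2.79 and 2.77 times Elovl6 in responder libraries, against 2.88 and 3.15 times in non-responder libraries.

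The stearoyl-CoA desaturases gave most of the reads. Scd2 (ENSMUSG00000025203, chromosome 19, 44293676 to 44306864) had 2373 and 2170.4 CPM in the responder libraries, against 2332 and 2872 CPM in the non-responder libraries. Non-responder replicate 2 stood above the other libraries, and the groups overlapped (log2 fold change -0.20, SE 0.24, 95% interval -0.75 to 0.36; edgeR adjusted p = 0.924). Over the alternative fits it ran from -0.33 to -0.04. Scd2 alone made up 51.1% and 49.7% of the reads of the 10 genes in responder libraries, against 52.2% and 54.9% in non-responder libraries. Scd1 (ENSMUSG00000037071, chromosome 19, 44394451 to 44407709), the main isoform of liver and fat in mouse, had 448 and 388 CPM in the responder libraries, against 438 and 466 CPM in the non-responder libraries. Its groups overlapped too (log2 fold change -0.12, SE 0.20, 95% interval -0.57 to 0.34; edgeR adjusted p = 0.943).

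Scd1 made up 15.9% (95% exact binomial interval 15.6% to 16.2%) and 15.2% (14.8% to 15.5%) of the Scd1 and Scd2 reads in the responder libraries, against 15.8% (15.5% to 16.1%) and 14.0% (13.7% to 14.2%) in the non-responder libraries. The low value belongs to non-responder replicate 2, and the groups overlap. The intervals cover counting error only. The mean difference, responder minus non-responder, was 0.61 percentage points, with replicates differing by an SD of 0.99 points. It was 1.54 points with non-responder replicate 1 left out and -0.31 points with non-responder replicate 2 left out.

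Because Scd1 and Scd2 are paralogs, their coding sequences were compared (GENCODE M21, GRCm38). They matched at 965 of 1068 aligned positions (90.4%), and the longest identical run was 147 bases. That run is shown with 20 bases on each side, since reads wholly inside it cannot be assigned to either gene and were not counted. It covers coding bases 503 to 689 of Scd1 (minus strand, chromosome 19, 44400321 to 44401825) and 512 to 698 of Scd2 (plus strand, chromosome 19, 44299682 to 44301265), each over 2 exons. Capitals mark the bases that differ.
Scd1: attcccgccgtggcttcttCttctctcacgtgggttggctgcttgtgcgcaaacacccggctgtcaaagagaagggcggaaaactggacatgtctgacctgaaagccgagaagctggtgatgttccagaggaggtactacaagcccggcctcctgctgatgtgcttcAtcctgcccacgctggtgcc
Scd2: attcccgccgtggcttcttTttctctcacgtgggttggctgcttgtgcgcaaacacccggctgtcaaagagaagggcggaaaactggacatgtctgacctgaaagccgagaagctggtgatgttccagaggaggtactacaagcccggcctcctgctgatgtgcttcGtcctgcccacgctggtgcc

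Over whole transcripts, 4.56% of the 50-base words of Scd1 and 3.97% of those of Scd2 occurred in another gene, so most of each transcript could be told apart. The paralogs Scd3 and Scd4, named here as relatives and after their values were seen, had low levels. Scd4 passed the low-count filter and Scd3 did not. Scd3 had 0.20 and 0.10 CPM in responder and 0.10 and 0.45 CPM in non-responder libraries. Scd4 had 1.54 and 1.88 CPM in responder and 1.21 and 2.96 CPM in non-responder libraries.

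The polyunsaturated desaturases were both lower in responder libraries without passing the test. Fads1 (ENSMUSG00000010663, chromosome 19, 10182888 to 10196870), the delta-5 desaturase, had 304 and 318 CPM in the responder libraries, against 335 and 375 CPM in the non-responder libraries. The log2 fold change was -0.19 (SE 0.19, 95% interval -0.63 to 0.25; edgeR adjusted p = 0.897). Fads2 (ENSMUSG00000024665, chromosome 19, 10064164 to 10101503), the delta-6 desaturase, had 109 and 109.6 CPM in the responder libraries, against 162 and 113 CPM in the non-responder libraries. Non-responder replicate 1 stood apart from the other 3 libraries, which lay within 109 to 113 CPM. The log2 fold change of -0.33 (SE 0.21, 95% interval -0.81 to 0.16; edgeR adjusted p = 0.849) was -0.04 without that library and -0.56 (edgeR adjusted p = 0.123) without the other non-responder library. The gene models used for counting hold 1508 exonic bases of Fads2 and 3456 of Fads1, which is 45.8% and 71.8% of their exonic bases in GENCODE M21, so reads from the rest were not counted. Fads3, a neighbour of both in the FADS cluster, ran the other way in the same library, with 62.5 and 43.3 CPM in responder and 22.6 and 43.9 CPM in non-responder libraries (log2 fold change 0.67, SE 0.35; edgeR adjusted p = 0.824). Only 5 of the 50-base words of Fads2 occur in Fads3.

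**Figure D2:**
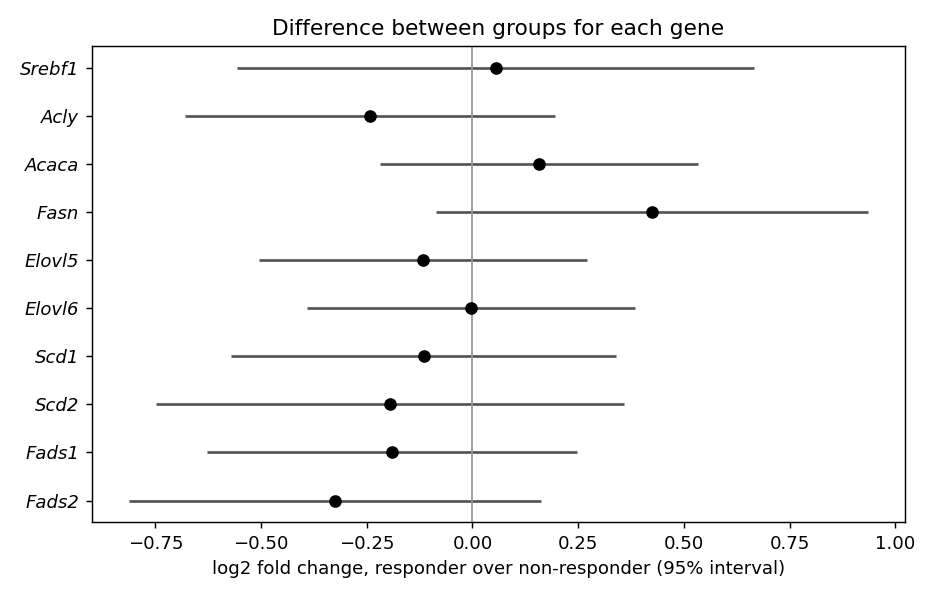
Log2 fold change of each gene, responder over non-responder (x axis), as points with lines for the 95% interval of edgeR's quasi-likelihood fit, with genes ordered by role from top to bottom. All 10 intervals include 0, and Fasn at 0.43 and Fads2 at -0.33 are the outermost points.

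Compared per kilobase of exon, the ends of the order of levels were the same in the 4 libraries. Scd2 came first in every library, at 435 and 398 RPKM (CPM per kilobase of exon) in responder and 428 and 527 RPKM in non-responder libraries, and Acaca last, at 3.57 and 3.26 RPKM in responder and 2.96 and 3.16 RPKM in non-responder libraries. Fads1, Scd1, Fads2 and Acly followed Scd2 by their means of 96.4, 89.9, 81.8 and 80.2 RPKM, changed places between libraries, and overlapped in range with their neighbours. Fasn overlapped with Elovl5 and Srebf1 with Elovl6. The ranges were separate between Scd2 and Fads1, Acly and Fasn, Elovl5 and Srebf1, and Elovl6 and Acaca. In non-responder replicate 1 alone, Fasn ranked below Elovl5 and Srebf1 below Elovl6. The place of Acaca carries the loss of shared reads described for it, and those of Fads1 and Fads2 rest on the short counted models.

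**Figure D3:**
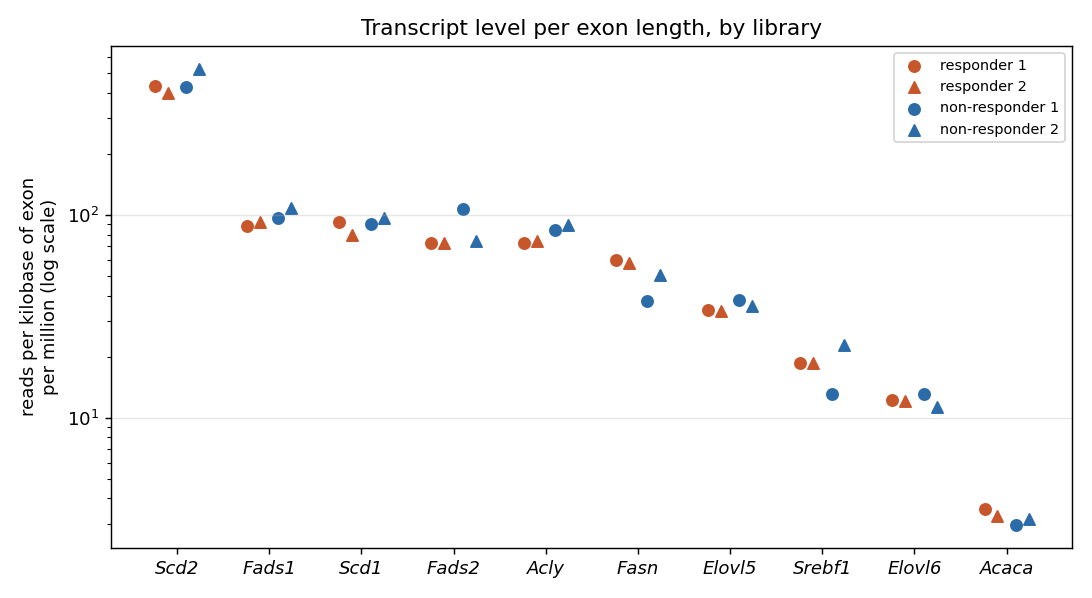
RPKM on a log scale (y axis) for the 10 genes, sorted by their mean (x axis); orange points are responder libraries and blue points to their right non-responder libraries, circles replicate 1 and triangles replicate 2. Scd2 lies at 398 to 527, above every other gene, and Acaca at 2.96 to 3.57, below every other gene.

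Other lipid genes were taken from 7 lists, with the genes of smallest p in each named. In none of the lists did a gene pass edgeR's adjusted p of 0.05, beside 0% of all genes. Some of the genes named from these lists passed it with 1 library left out. In such a fit the remaining library of a group takes its spread from the other group. Only the named genes were followed one by one in the alternative fits. Of 14 tested enzymes and helpers of fatty acid synthesis, 5 had positive and 9 negative log2 fold changes (median -0.12). The median was -0.25 without responder replicate 1, and -0.06 without non-responder replicate 2 or with at least 5 CPM required in 2 libraries. Unadjusted edgeR p was under 0.05 for 2, both lower, beside 3.63% of all genes. Idh1, cytosolic isocitrate dehydrogenase and a source of NADPH, had 38.8 and 35.4 CPM in responder, against 63.4 and 60.9 CPM in non-responder libraries (log2 fold change -0.74, SE 0.16; edgeR adjusted p = 0.455). Acsl6, an acyl-CoA synthetase, had 2.03 and 3.56 CPM against 9.42 and 3.86 CPM. Acsl4, which activates arachidonate, had 144 and 125 CPM in responder and 184 and 149 CPM in non-responder libraries. Over the whole list 9 genes did not overlap between groups, beside 36.5% of all genes.

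Of 11 tested genes of the elongation cycle and other desaturases, 8 had positive and 3 negative log2 fold changes (median 0.04). Without any 1 library, 6 were positive and 5 negative (median 0.03 to 0.10, the 0.10 without responder replicate 1). With all libraries, 0 had an unadjusted edgeR p under 0.05, beside 6.21% of all genes. Tecr, the last reductase of the cycle, had 110.4 and 125 CPM in responder, against 178 and 139.9 CPM in non-responder libraries (log2 fold change -0.44, SE 0.20; edgeR adjusted p = 0.796). Elovl4, an elongase of very long chains, averaged 30.0 ± 2.81 CPM in responder and 33.7 ± 3.87 CPM in non-responder libraries (SD, n = 2 each), which overlap.

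Of 25 tested regulators of SREBP-1 and lipogenesis, 18 had positive and 7 negative log2 fold changes (median 0.09). The median was 0.15 without responder replicate 1 and 0.03 without non-responder replicate 1. An unadjusted edgeR p under 0.05 was seen for 1 gene, beside 6.21% of all genes. That gene was Lpin1, a phosphatidate phosphatase that also restrains nuclear SREBP, at 17.2 and 17.7 CPM in responder, against 27.3 and 31.6 CPM in non-responder libraries (log2 fold change -0.76, SE 0.19; edgeR adjusted p = 0.586). Usf2, a factor that binds E-boxes of lipogenic promoters, had 33.9 and 31.6 CPM in responder and 25.3 and 29.1 CPM in non-responder libraries. Prkaa2, a catalytic subunit of AMPK, the kinase that inactivates acetyl-CoA carboxylase, had 13.2 and 15.2 CPM in responder and 12.7 and 9.15 CPM in non-responder libraries.

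The sterol genes, which SREBP-2 drives, lay lower in responder libraries. Of 18 tested, 17 had negative log2 fold changes with a median of -0.41, against -0.01 over all genes, and 6 had an unadjusted p under 0.05, all lower, beside 3.63% of all genes; the 6 were 4 with DESeq2 or with scaling by library size alone, and 0 with either responder library left out. Hmgcs1, the cytosolic HMG-CoA synthase, had 116 and 106 CPM in responder, against 185 and 152 CPM in non-responder libraries (log2 fold change -0.60, SE 0.19; edgeR adjusted p = 0.68). Msmo1, a sterol methyl oxidase, had 56.9 and 61.9 CPM in responder and 81.2 and 85.4 CPM in non-responder libraries. Stard4, a cholesterol carrier, had 70.5 and 67.3 CPM in responder and 92.1 and 102 CPM in non-responder libraries. The median was between -0.45 and -0.27 without any 1 library. The fatty acid genes had a median of -0.12 beside it, and the difference between the lists was not tested.

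Among 20 tested genes of glycerolipid synthesis and storage, 12 had positive and 8 negative log2 fold changes (median 0.04). The balance was 9 positive and 11 negative without non-responder replicate 1 (median -0.04) and 10 of each without responder replicate 1 (median 0.004). At an unadjusted edgeR p, 1 gene, Chka, was under 0.05, beside 6.21% of all genes. Chka, choline kinase alpha, had 98.2 and 106 CPM in responder, against 58.1 and 71.2 CPM in non-responder libraries (log2 fold change 0.66, SE 0.18; edgeR adjusted p = 0.631). Gpat3, a glycerol phosphate acyltransferase, had 22.4 and 17.5 CPM in responder and 10.9 and 15.7 CPM in non-responder libraries. Lpcat3, which places polyunsaturated acyl chains into phospholipids, had 61.3 and 58.1 CPM in responder and 83.6 and 69.3 CPM in non-responder libraries.

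Fatty acid uptake and binding genes had 2 positive and 7 negative log2 fold changes among 9 tested (median -0.13). Only 1, Cd36, had an unadjusted edgeR p under 0.05, beside 6.21% of all genes. Without responder replicate 2 the balance turned to 5 positive and 4 negative (median 0.05), and the median was -0.28 without responder replicate 1 and -0.07 (4 positive, 5 negative) without non-responder replicate 1. Cd36, a fatty acid translocase that macrophages also carry, had 0.05 and 0.26 CPM in responder, against 1.30 and 1.70 CPM in non-responder libraries (log2 fold change -3.24, SE 0.70; edgeR adjusted p = 0.455). Fabp5, a fatty acid binding protein, had 7.83 and 4.45 CPM in responder and 19.2 and 7.31 CPM in non-responder libraries. Slc27a1, a fatty acid transporter, had 97.4 and 117 CPM in responder and 58.5 and 99.6 CPM in non-responder libraries.

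Of 20 tested genes of mitochondrial fatty acid oxidation, the opposing route, 5 had positive and 15 negative log2 fold changes (median -0.15). The balance was 8 and 12 with non-responder replicate 2 left out, and 3 and 17 with non-responder replicate 1 left out. Of the 20, Cpt1c and Cpt1a, both lower, had an unadjusted edgeR p under 0.05, beside 3.63% of all genes. Cpt1a, which admits acyl chains into mitochondria, had 38.9 and 34.4 CPM in responder, against 48.1 and 50.5 CPM in non-responder libraries (log2 fold change -0.43, SE 0.17; edgeR adjusted p = 0.765). Cpt1c, its relative of neurons, had 2.03 and 1.52 CPM in responder and 4.20 and 4.71 CPM in non-responder libraries. Etfdh, which passes electrons from the pathway to ubiquinone, had 37.8 and 28.7 CPM in responder and 53.8 and 36.9 CPM in non-responder libraries.

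**Figure D4:**
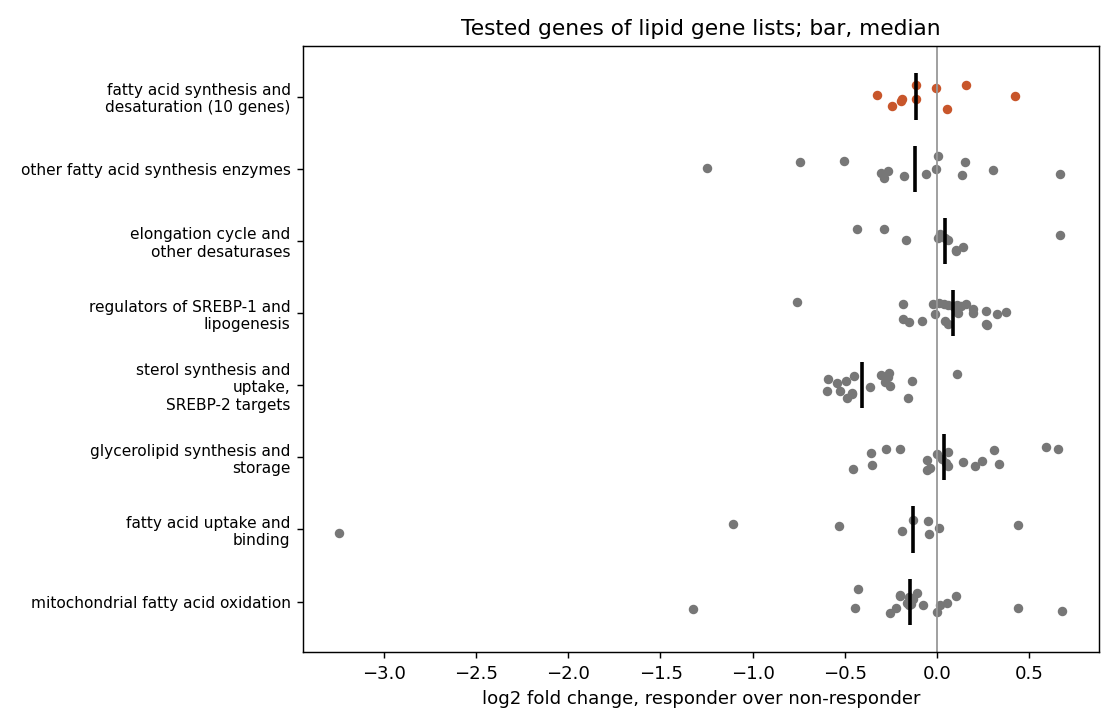
Log2 fold change, responder over non-responder (x axis), of every tested gene in 8 lipid gene lists (rows; points are genes, shifted at random up or down for visibility), with a vertical bar at each list's median. The 10 fatty acid genes in orange lie between -0.33 and 0.43 around a median of -0.12, and the sterol genes have the lowest median at -0.41.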

How the data were processed

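The authors deposited raw counts per gene, 1 file per library, with no normalization. Per the submitters' processing notes, reads were aligned with STAR (its version is not given in the sources used here) to mm10 (GRCm38). Per the file headers, they were counted with featureCounts 1.6.1, reverse-stranded (setting 2), on Ensembl release 91, with no option set to count multi-mapping reads. Symbols matched 53274 of 53379 identifiers, and every row names a gene. Low counts were removed by filterByExpr (minimum count 10) of edgeR 4.0.16 (R 4.3.3), and TMM gave scaling factors of 0.952 to 1.036. Genes were tested by a robust quasi-likelihood test on group alone, 2 residual degrees of freedom, Benjamini-Hochberg threshold 0.05. The code was checked on simulated counts with the same dispersion for every gene and no GC or length trend. That check does not cover how well the model suits these libraries. SE is the log2 fold change over the square root of F, and 95% intervals use the fitted degrees of freedom. CPM uses TMM-scaled totals. Depth limits precision little for these genes; the number of libraries does.

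The 10 genes and the lists were chosen with earlier results of these data known. Named are all 10 and the 3 genes of smallest p in each other lipid list, with Scd3 and Scd4 added as relatives. Markers are given as sums over whole lists, and only the macrophage list is named in full. Alternatives were RLE and upper-quartile factors, library size alone, DESeq2 1.42.0, limma-voom (limma 3.58.1), no filter, at least 5 CPM in 2 libraries, a replicate block, each library left out, and, added after seeing the data, GC content (known for 99.9% of genes) and length trends removed. Promoters came from RefSeq, transcripts from GENCODE M21, words were 50 bases.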

Additional observations from a re-analysis of the deposited data

How the results depend on the processing

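Over 13 alternative fits of the 10 fatty acid genes, 124 of 130 values kept their direction and 0 passed an adjusted p of 0.05; at an unadjusted p under 0.05 Fasn passed with DESeq2 (beside 5.34% of all genes), the replicate block (12.5%) and the GC content and length fit (7.8%), and Fasn, Fads2 and Srebf1 passed without non-responder replicate 2 (18.5%). The 6 that turned were Srebf1 (0.05; -0.28 to 0.51 with 1 library left out) and Elovl6, whose log2 fold change of -0.004 became 0.030 with library size alone, 8.9e-05 with the replicate block, -0.11 to 0.12 with 1 library left out (above 0 without responder replicate 2 or without non-responder replicate 1) and 0.091 with GC content and length trends removed; the cause was not tested. Over all genes, 0 passed with edgeR as reported (856 at an unadjusted p under 0.05), 62 with DESeq2, 212 with no low-count filter (29612 genes tested), 32 with the replicate block and 41 to 516 with 1 library left out, where the remaining library of a group takes its spread from the other group; the 516 were without non-responder replicate 2. The median of the fatty acid genes, -0.12, was -0.15 to -0.06 with 1 library left out (the -0.059 without responder replicate 2) and -0.068 with GC content and length trends removed; in the other fits it moved by less than the SD of 0.035 between replicates. The Scd1 share difference of 0.61 points ran from -0.31 to 1.54 points with 1 library left out. Replicate numbers were not treated as pairs: the labels do not say what they mark, although the differences between replicates 1 and 2 correlated between groups (Pearson's r = 0.37 across genes, which are not independent). With the replicate block Fasn had a log2 fold change of 0.44 (edgeR adjusted p = 0.353). Of the genes named from the other lists, the only ones followed one by one, some passed the adjusted threshold with 1 library left out. With no filter Idh1, Cd36 and Fabp5 passed it, beside 0.716% of all genes. With 2 libraries per group, differences of the size seen here are within the intervals, which does not show that the groups are alike.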
